A study of Mus musculus with 8 samples.

Results

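Ribosome biogenesis and nucleolar genes were followed in bone marrow-derived macrophages (BMDMs) by total RNA sequencing. The genes were 40 symbols from a fixed list, matched to the deposited Ensembl identifiers by name through GENCODE annotation of GRCm39. All 40 were found among 55359 genes in the file, and all 40 were among the 16309 genes tested, which had a mean of at least 10 normalized counts. The list covers factors of rRNA transcription, rRNA modification and subunit assembly, and 1 subunit of a tRNA methyltransferase (Trmt61a).

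BMDMs came from femurs of wild-type C57BL/6 mice, adults of both sexes, and were differentiated with M-CSF and GM-CSF. The 4 groups were naïve cells (Ctrl), naïve cells given LPS (100 ng/mL) together with murine IFNγ (100 U/mL) over 6 h (LPS), cells after 16 h with apoptotic fibroblasts and no stimulus (Eff) and cells with co-culture followed by the same stimulus (LPSEff), each with n = 2 samples. The apoptotic cells were NIH-3T3 fibroblasts with a caspase-8 domain that a dimerizer activates, added at 5 per macrophage, and CD45+ cells were isolated at harvest. Nothing in the labels ties samples to separate animals or cultures, so that all p-values measure only the spread between these samples, which may be technical. With 2 samples per group the smallest exact two-sided permutation p is 0.3333, so that only models that borrow the spread from other genes were used for testing.

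Ribosomes are built in the nucleolus. RNA polymerase I transcribes the rRNA precursor, small nucleolar ribonucleoproteins (snoRNPs) modify it, the small subunit (SSU) processome folds and cuts it, and further factors carry the pre-40S and pre-60S particles to the cytoplasm. The MYC protein is known to raise the transcription of many of these factors through E-boxes, short DNA motifs bound by MYC and its partner MAX, and the demand for new ribosomes is highest in growing cells.

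Normalized counts are reads per gene divided by a size factor per sample. The recovered depth was 3481288 to 12020918 reads per sample, and 3 reads corresponded to 1.73 to 5.71 normalized counts. Per sample, the sum of all normalized counts was 6587740 to 6951790 without and 8470250 to 9489290 with stimulation. The 10 macrophage markers summed to 108856 to 164148 over all samples and none was at 0. By the main test, 3 of them were called higher in LPS vs Ctrl and 4 in LPSEff vs Eff, and 0 lower. Of all genes tested, 12.4% and 10.7% were called higher. The median log2 fold changes of the 10 markers were 0.31 and 0.64. No lymphocyte marker reached the minimum mean, and the sums of these markers were 6.35 to 21.99. Fibroblast markers (15 genes) summed to 609 to 625 in Ctrl, 2409 to 4683 in LPS, 1889 to 3913 in Eff and 5900 to 6471 in LPSEff, and none was at 0 in both samples of a group. They moved with both factors of the design, and their part in the results below was not tested. In the LPS samples, which saw no fibroblasts, Lox alone made up 3620.2 and 1335.4 of these sums. Dendritic cell markers summed to 1532 to 9688 and neutrophil markers to 608 to 1933, and their part was not tested either. The 5 dendritic cell markers had median log2 fold changes of 1.42 in LPS vs Ctrl (1 called higher, Xcr1), 1.01 in LPSEff vs Eff and, with efferocytosis, −0.72 without and −0.81 with stimulation. Of 3 neutrophil markers tested, S100a8 was called higher in LPS vs Ctrl (0.98) and in Eff vs Ctrl (1.24). In bulk RNA, fewer cells of a type and less RNA per cell cannot be told apart.

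A sequence feature that the choice of genes did not use was examined around their start sites. The motif and its windows were chosen after the values had been seen. The E-box CACGTG, which reads the same on both strands, was searched from 250 bases upstream of the start of the canonical transcript to 1000 bases downstream. In the 250 bases upstream it occurred in 4 of 40 listed genes (10%) and in 7.83% of 12498 tested protein-coding genes. In the 1000 bases downstream it occurred in 25 of 40 (62.5%), against 17.8% of tested protein-coding genes, 43.1% of 123 other ribosome biogenesis genes and 29.1% of 79 ribosomal protein genes. The listed genes held 41 copies, of which 16 lay in introns, 16 in untranslated exons, 4 in coding exons and 5 upstream of the transcript, and 10 genes held more than 1 copy. The stretches below show the motif (capitals, 12 bases on each side, strand of the gene) in the strongest changed gene of several roles, in nucleolin (Ncl) and in Ltv1. The stretch of Ncl holds 3 copies close together, and a second stretch of Ncl with 2 further copies is not shown. Ltv1 holds the motif and was not called in any comparison by the main test.
Dkc1: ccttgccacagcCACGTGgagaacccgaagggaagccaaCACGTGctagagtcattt
Trmt61a: ccgccgtggagcCACGTGtggagccgggag
Rrp12: gctgaggacacaCACGTGggttctgccgtg
Nop58: ggttcaggtgaaCACGTGgcttctccgaat
Polr1b: ctgacgcgggcgCACGTGgactccttcaac
Utp20: cggcactaactaCACGTGaggaaaagcagg
Ncl: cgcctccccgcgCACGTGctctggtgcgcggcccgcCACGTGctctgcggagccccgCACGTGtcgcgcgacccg
Ltv1: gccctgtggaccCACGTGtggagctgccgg

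In GRCm39, these stretches lie at chrX:74140228-74140284 on the plus strand in an intron of Dkc1, at chr12:111644552-111644581 on the plus strand in an untranslated exon of Trmt61a and at chr19:41884587-41884616 on the minus strand in an untranslated exon of Rrp12. The stretch of Nop58 lies at chr1:59724530-59724559 on the plus strand in an intron, that of Polr1b at chr2:128943118-128943147 on the plus strand in a coding exon and that of Utp20 at chr10:88662622-88662651 on the minus strand in an untranslated exon. The stretch of Ncl lies at chr1:86286495-86286569 on the minus strand in an intron and that of Ltv1 at chr10:13068836-13068865 on the minus strand in an untranslated exon. The motif begins 46 to 67 bases downstream of the start in Trmt61a, Rrp12, Utp20 and Ltv1. It begins 228 bases downstream in Polr1b, 429 in Nop58, 652 in Ncl and 781 in Dkc1. Nolc1, Rrp1b and Polr1c hold no copy in the window, which says only that these letters are not there. A match is a description of the sequence and not of binding.

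To address how an inflammatory stimulus affected the ribosome assembly programme of naïve macrophages, LPS was compared with Ctrl. Of the 40 genes, 29 were lower in LPS and 0 were higher at an adjusted p under 0.05 (limma on log2(normalized count + 1), Benjamini-Hochberg over all genes tested), whereas 11.6% of all genes tested were called lower and 12.4% higher. The median log2 fold change of the 40 genes was −1.08, a 2.11-fold lower level, against −0.01 over all genes tested, and the values ran from −2.86 (Dkc1) to 0.18 (Ltv1). Both LPS samples were below both Ctrl samples for 33 of 40 genes, which holds for 30.9% of all genes tested. The share of all reads that fell on the 40 genes was 0.256% and 0.258% in the Ctrl samples and 0.0868% and 0.0958% in the LPS samples. Their exact 95% binomial intervals, which cover counting error only, ran from 0.251% to 0.262% in Ctrl and from 0.0846% to 0.0978% in LPS. Without Ctrl replicate 1, the shallowest library, the median log2 fold change of the 40 genes was −1.09, and without Ctrl replicate 2 it was −1.07. In both fits fewer genes were called, of the 40 as of all genes tested.

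**Figure D1:**
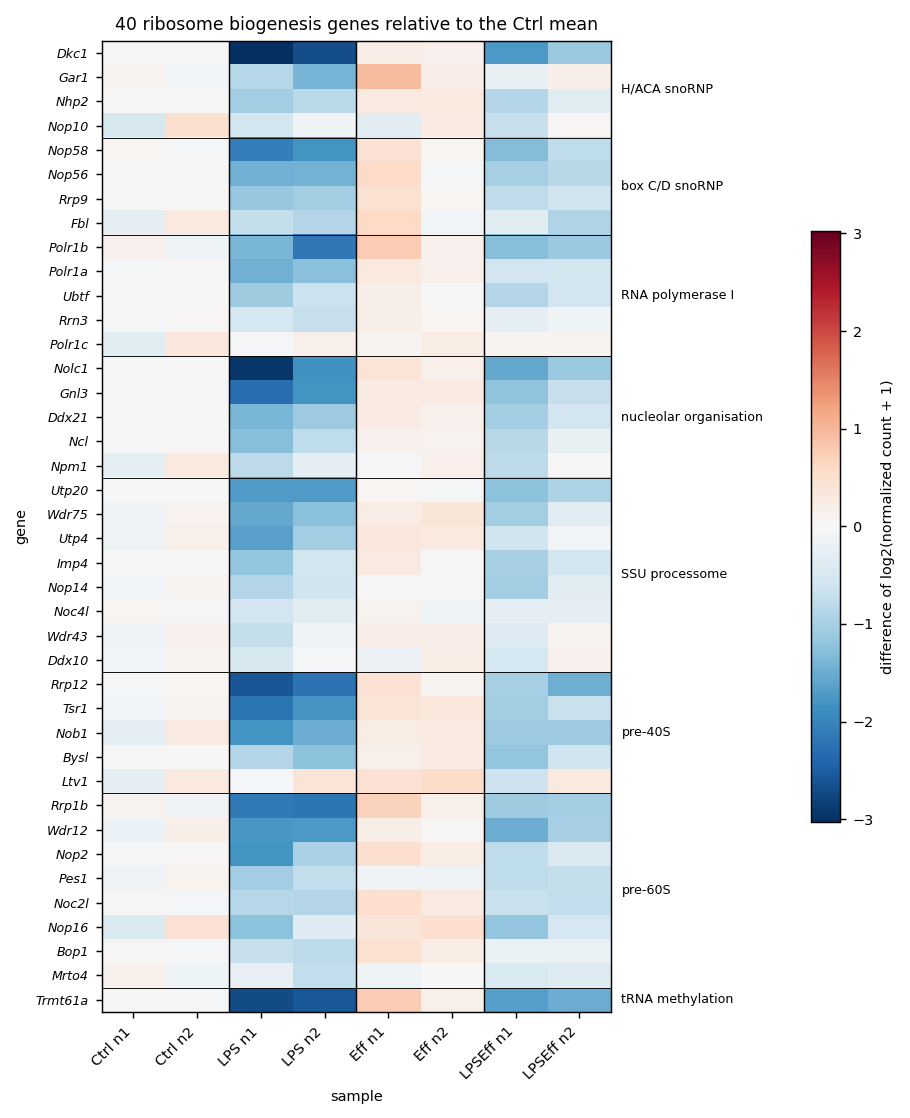
Heat map of the 40 genes (rows, grouped by role) in the 8 samples (columns), with colour giving the difference of log2(normalized count + 1) from the mean of both Ctrl samples. The LPS columns are the deepest blue, with sample medians of −1.21 and −1.01, the LPSEff columns are paler, with −0.89 and −0.57, and the Eff columns lie at 0.26 and 0.16.

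Among the genes of H/ACA snoRNPs, particles that guide the conversion of uridine to pseudouridine, the catalytic subunit dyskerin (Dkc1) changed most of all 40 genes. Dkc1 had 262.8 and 257.3 normalized counts in Ctrl, 31.0 and 39.6 in LPS, then 297.9 and 285.1 in Eff and 77.6 and 119.3 in LPSEff. The groups did not overlap, with unstimulated samples high, LPSEff between and LPS lowest. The LPS mean was 13.6% of the Ctrl mean, with a log2 fold change of −2.86 ± 0.26 (SE, n = 2 per group, limma adjusted p = 0.000266). Nhp2, which anchors the complex on the guide RNA, fell by 0.93 on the log2 scale (adjusted p = 0.016, limma), and Gar1 fell by 1.13 with an adjusted p of 0.0499, which lay at the threshold. Gar1 was called in 5 of 18 alternative settings, with an adjusted p of up to 0.198. Nop10, the smallest subunit of the complex, had −0.34 ± 0.40 and was not called.

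All 4 listed genes of box C/D snoRNPs, particles that mostly guide ribose methylation, had negative values, and 3 of 4 were called lower. Nop58, a scaffold protein of these particles, had 380.8 and 348.7 normalized counts in Ctrl, 86.7 and 102.6 in LPS, then 490.7 and 382.5 in Eff and 145.7 and 214.5 in LPSEff. Its LPS samples lay below all other samples, and the log2 fold change against Ctrl was −1.94 ± 0.25 (SE, n = 2 per group, limma adjusted p = 0.00122). The second scaffold protein Nop56 fell by 1.45, and Rrp9, which binds the U3 snoRNA of the SSU processome, fell by 1.08 on the log2 scale. The methyltransferase fibrillarin (Fbl) had −0.80 ± 0.37 and was not called. Of the 50-base windows of the Fbl transcript, 80.7% also occur elsewhere in the genome, so that its level is uncertain.

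In the RNA polymerase I group, 4 of 5 genes were called lower. Polr1b, the second largest subunit, had 133.3 and 112.2 normalized counts in Ctrl, 46.6 and 26.4 in LPS, then 207.7 and 133.4 in Eff and 49.9 and 55.8 in LPSEff. All stimulated samples were below all unstimulated samples, and the log2 fold change of LPS vs Ctrl was −1.77 ± 0.35 (SE, n = 2 per group, limma adjusted p = 0.00789). The largest subunit Polr1a fell by 1.36, the rDNA-binding factor Ubtf by 0.85 and the initiation factor Rrn3 by 0.61 on the log2 scale. Rrn3 was called in 7 of 18 alternative settings, with an adjusted p of up to 0.158 and of 0.0831 by DESeq2. Polr1c, a subunit shared with RNA polymerase III, did not follow the rest of the group. It had 201.8 and 321.5 normalized counts in Ctrl, 249.6 and 285.4 in LPS, then 268.1 and 298.5 in Eff and 268.4 and 269.1 in LPSEff. These ranges overlapped, and the log2 fold change of LPS vs Ctrl was 0.07 with a 95% interval from −0.50 to 0.63, which turned to −0.33 when samples were scaled to equal totals.

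Of 5 abundant nucleolar proteins, 4 were called lower. Nolc1, a snoRNP chaperone, had 599.8 and 607.8 normalized counts in Ctrl, 77.6 and 169.6 in LPS, then 805.3 and 673.3 in Eff and 205.1 and 276.7 in LPSEff. Its LPS samples lay far apart and were still below all other samples, with a log2 fold change of −2.38 ± 0.35 against Ctrl (SE, n = 2 per group, limma adjusted p = 0.00208). The GTPase nucleostemin (Gnl3) fell by 2.06, the RNA helicase Ddx21 by 1.23 and nucleolin (Ncl), a major RNA-binding protein of the nucleolus, by 1.03 on the log2 scale. Nucleophosmin (Npm1), a chaperone of the granular component, had −0.54 ± 0.33 and overlapping groups. For Npm1, 47.5% of the 50-base windows of the transcript occur elsewhere in the genome.

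The SSU processome genes were split, with 4 of 8 called lower. Utp20, a large scaffold protein of the processome, had 994.0 and 992.4 normalized counts in Ctrl, 302.6 and 300.6 in LPS, then 1034.0 and 974.6 in Eff and 418.8 and 514.0 in LPSEff. The replicates of Ctrl and LPS were nearly identical, and the log2 fold change was −1.72 ± 0.17 (SE, n = 2 per group, limma adjusted p = 0.00041). Wdr75 and Utp4, which belong to the module that binds the nascent rRNA, fell by 1.41 and 1.35 on the log2 scale, and Imp4, a protein of the U3 snoRNP, fell by 0.86 and was called in 9 of 18 alternative settings. Wdr43 of the same module as Utp4 (−0.41), Nop14 (−0.75), its partner Noc4l (−0.47) and the helicase Ddx10 (−0.26) were not called.

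In the pre-40S group, 4 of 5 genes were called lower. Rrp12, an export and assembly factor, had 289.4 and 310.0 normalized counts in Ctrl, 49.1 and 63.0 in LPS, then 403.1 and 318.3 in Eff and 149.6 and 106.6 in LPSEff. The 4 groups did not overlap, and LPS was 18.7% of Ctrl with a log2 fold change of −2.41 ± 0.25 (SE, n = 2 per group, limma adjusted p = 0.000483). Tsr1, a GTPase-like assembly factor, fell by 1.99, Nob1, the endonuclease that makes the mature 18S rRNA end, by 1.66 and Bysl by 1.07 on the log2 scale. Ltv1, a late pre-40S factor, went against the list. It had 118.1 and 177.5 normalized counts in Ctrl, 142.3 and 189.9 in LPS, then 198.0 and 213.8 in Eff and 93.4 and 177.7 in LPSEff. The groups overlapped, and its log2 fold change of LPS vs Ctrl was 0.18 with a 95% interval from −0.61 to 0.98, which turned to −0.22 with equal totals.

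Of 8 pre-60S genes, 6 were called lower. Rrp1b, a nucleolar assembly factor, had 192.3 and 168.3 normalized counts in Ctrl, 40.1 and 38.6 in LPS, then 292.7 and 201.8 in Eff and 84.7 and 87.6 in LPSEff. Each group formed its own level, and the log2 fold change of LPS vs Ctrl was −2.17 ± 0.25 (SE, n = 2 per group, limma adjusted p = 0.000735). The members of the PeBoW complex, which is needed for 28S rRNA maturation, fell unequally, by 1.76 (Wdr12), 0.90 (Pes1) and 0.75 (Bop1) on the log2 scale. The rRNA methyltransferase Nop2 had a log2 fold change of −1.40 and Noc2l fell by 0.87. Nop16 had −0.81 ± 0.45 and as few as 14 reads in a sample, and Mrto4, a relative of a ribosomal stalk protein, had −0.49 ± 0.28, and neither was called.

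Trmt61a, the catalytic subunit of the enzyme that methylates adenosine in tRNA, was the second most changed gene. It had 160.0 and 152.7 normalized counts in Ctrl, 23.3 and 25.4 in LPS, then 268.1 and 173.6 in Eff and 48.3 and 54.6 in LPSEff. Stimulated samples were far below unstimulated samples, and LPS was 15.6% of Ctrl with a log2 fold change of −2.64 ± 0.28 (SE, n = 2 per group, limma adjusted p = 0.00047). Its lowest sample held 18 reads, and that of Dkc1 held 24.

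**Figure D2:**
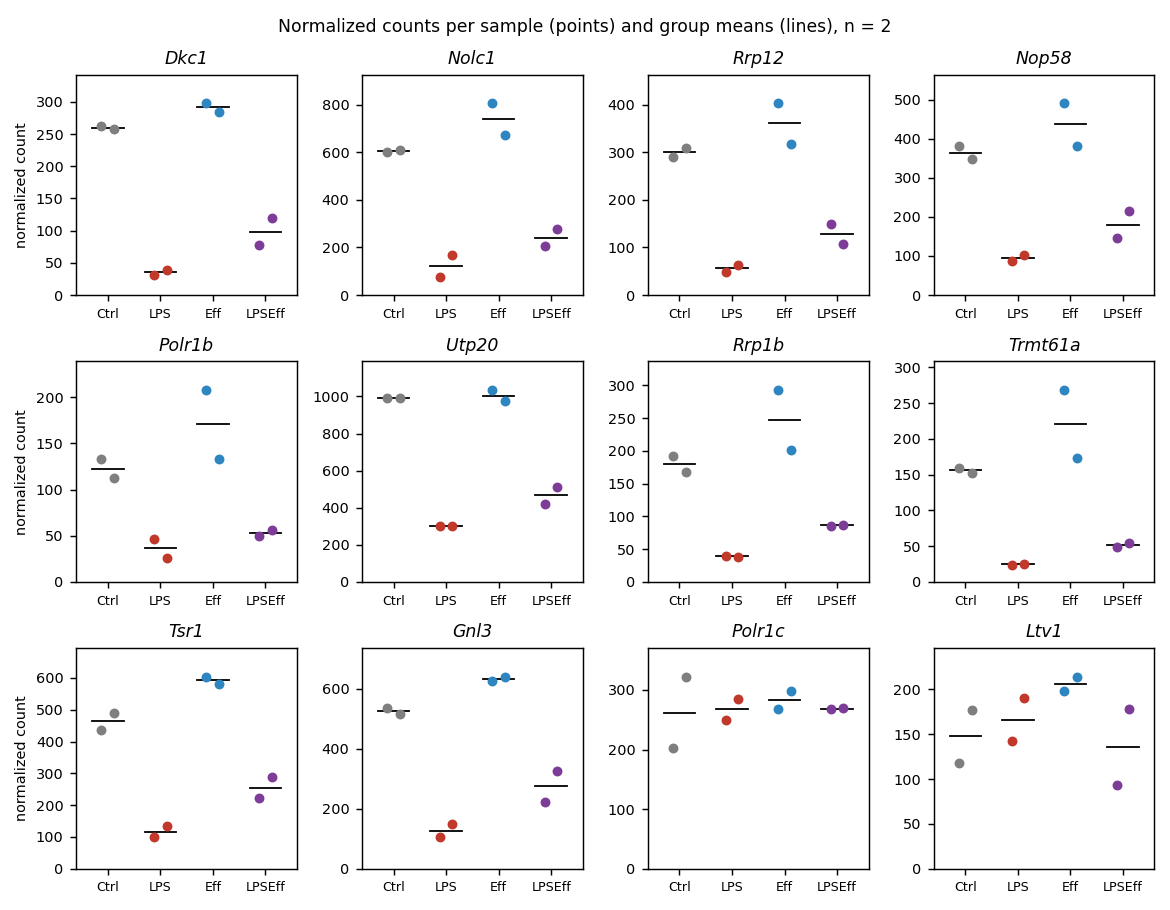
Normalized counts per sample (points) with group means (lines, n = 2) for 12 of the 40 genes, each axis starting at 0. In all panels but those of Polr1c and Ltv1, both LPS points are the lowest and both LPSEff points lie between LPS and the unstimulated groups, most narrowly for Polr1b with LPS up to 46.6 and LPSEff from 49.9.

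The same stimulus was then examined in macrophages that had taken up apoptotic cells. In LPSEff vs Eff, 23 of 40 genes were called lower and 0 higher, whereas 8.95% of all genes tested were called lower and 10.7% higher (limma). The median log2 fold change was −0.94, against 0.00 for the median of all genes tested after rounding, and all 40 values were negative, from −2.05 (Trmt61a) to −0.07 (Polr1c). Both LPSEff samples were below both Eff samples for 36 of 40 genes, against 30.4% of all genes tested. The 40 genes took 0.318% and 0.280% of the reads of the Eff samples, and this share was 0.109% and 0.131% in LPSEff. The median log2 fold change of the 40 genes was −0.81 without Eff replicate 1 and −1.05 without Eff replicate 2. It was −0.78 without LPSEff replicate 1 and −1.13 without LPSEff replicate 2. In each of these fits fewer genes were called, of the 40 as of all genes tested.

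All 23 genes called in efferocytic cells were also called in naïve cells, where they made up 79.3% of the 29. After Trmt61a, the largest falls in efferocytic cells were those of Polr1b (−1.64 ± 0.35, adjusted p = 0.0126), Nolc1 (−1.62 ± 0.35, adjusted p = 0.0132), Dkc1 (−1.59 ± 0.26, adjusted p = 0.00461) and Rrp12 (−1.50 ± 0.25, adjusted p = 0.00508), all from limma with n = 2 per group. Dkc1 and Rrp12 were at 33.8% and 35.5% of the Eff mean, compared with 13.6% and 18.7% of the Ctrl mean in naïve cells. Ncl, Pes1, Utp4, Gar1, Bop1 and Rrn3 passed the threshold in naïve cells but not in efferocytic cells, with log2 fold changes of −0.65, −0.62, −0.65, −0.62, −0.54 and −0.32. A fall called in naïve cells and not in efferocytic cells is not in itself a difference between them. Fbl, Nop16, Nop14, Npm1, Noc4l, Wdr43, Mrto4, Nop10, Ddx10, Polr1c and Ltv1 were called in neither.

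**Figure D3:**
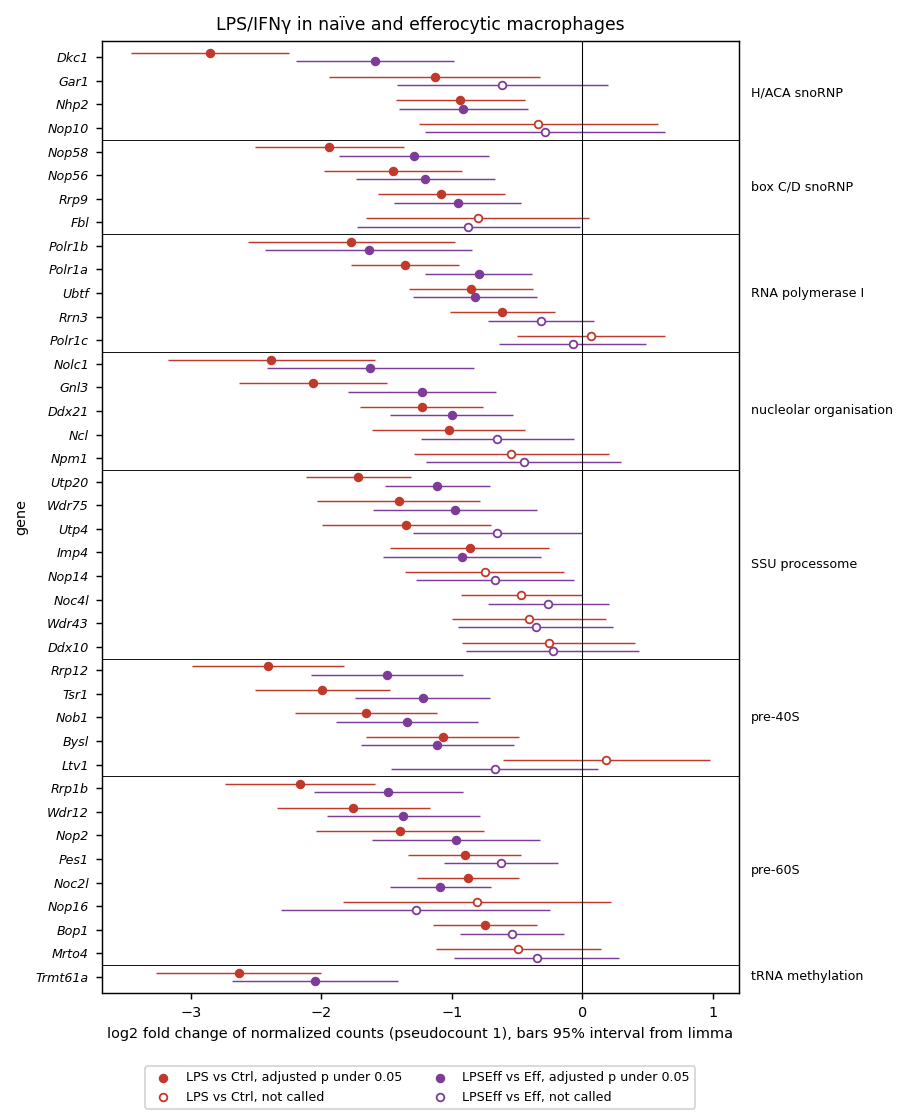
Log2 fold changes of normalized counts (x axis, pseudocount 1) of the 40 genes with 95% intervals from limma for LPS vs Ctrl (red) and LPSEff vs Eff (purple), filled where the adjusted p was under 0.05. Most points lie left of 0, with 29 red and 23 purple points filled, and the red point is the lower of the pair for 33 genes.

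When the samples were scaled to equal totals, the median of all genes tested shifted to −0.40 in LPS vs Ctrl and −0.44 in LPSEff vs Eff, and the share of all calls that were higher went from 51.5% to 24.8% and from 54.6% to 21.8%. Such scaling moves all genes of a sample by the same factor. The distance of the 40 genes from the median gene (−1.06 and −0.94 as deposited) is therefore nearly fixed by construction. Of the 40 genes, 35 were called lower in each comparison, beside 4315 and 4362 of all 16309 genes tested. No alternative called any of the 40 genes higher in either comparison.

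Efferocytosis alone gave no called change. In Eff vs Ctrl, 0 of 40 genes were called by limma, edgeR and DESeq2, against 0.251% of all genes tested by limma, and 0 had an unadjusted p under 0.05, against 6.13% of all genes. The median log2 fold change was 0.25, against −0.01 over all genes, and 35 of 40 values were positive. Without Eff replicate 1 this median was 0.16. Both Eff samples were above both Ctrl samples for 25 of 40 genes, which holds for 16.3% of all genes tested. For 1 gene, Pes1, both Eff samples were below, which holds for 2900 of all 16309 genes tested. The smallest unadjusted p-values were those of Noc2l, Bop1 and Rrp1b. Noc2l, a factor of early pre-60S particles, had 816.9 and 778.4 normalized counts in Ctrl, 438.5 and 430.6 in LPS, then 1133.0 and 957.7 in Eff and 501.2 and 478.5 in LPSEff, which put both Eff samples highest. Bop1 had 584.6 and 547.7 in Ctrl, 350.5 and 323.9 in LPS, then 782.5 and 662.0 in Eff and 494.8 and 495.0 in LPSEff, in the same order. The log2 fold changes of Eff vs Ctrl were 0.39 ± 0.17 for Noc2l, 0.35 ± 0.17 for Bop1 and 0.43 ± 0.25 for Rrp1b, with limma adjusted p-values of 0.825, 0.92 and 0.978 (n = 2 per group). Their 95% intervals reached up to 0.78, 0.75 and 1.00 on the log2 scale.

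Under stimulation, cells with prior efferocytosis had higher values for most of these genes, although no difference passed the threshold of the main test. In LPSEff vs LPS, 0 of 40 genes were called by limma (0.773% of all genes tested) and by edgeR, and 4 by DESeq2 (Dkc1, Rrp12, Tsr1 and Gnl3, all higher). Of all 16309 genes tested, edgeR called 126 and DESeq2 called 368. At an unadjusted p under 0.05 there were 17 genes, against 10.3% of all genes tested. The median log2 fold change was 0.46, against 0.00 over all genes after rounding, and 38 of 40 values were positive. Both LPSEff samples were above both LPS samples for 24 genes, against 19.3% of all genes tested. The median was 0.37 without LPS replicate 1 and 0.50 without LPS replicate 2. It was 0.57 without LPSEff replicate 1 and 0.32 without LPSEff replicate 2. In this order, 10, 3, 1 and 9 of the 40 values were negative. Dkc1 had 2.79 times the LPS mean, with a log2 fold change of 1.43 ± 0.26 (SE, n = 2 per group, adjusted p = 0.0661 by limma, 0.0507 by edgeR and 0.00685 by DESeq2). Tsr1 had 99.6 and 134.0 normalized counts in LPS and 221.7 and 288.1 in LPSEff, below the 436.1 and 491.0 of Ctrl and the 602.9 and 581.5 of Eff. Its log2 fold change of LPSEff vs LPS was 1.12 ± 0.22 (limma adjusted p = 0.0879, n = 2 per group), and that of Rrp12 was 1.17 ± 0.25 (limma adjusted p = 0.115). The exons of Tsr1 and Dkc1 overlap those of genes on the opposite strand (Srr over 34.2% and Mpp1 over 20.1% of their length). Other listed genes have such overlaps too, among them Nhp2 (Rmnd5b, 25.15%), Nop56 (2810036E18Rik, 13.97%) and Bop1 (Hsf1, 12.77%). Exons of Nop56, Nop58, Gnl3 and Ncl also overlap snoRNAs on the same strand. The sources used here name no strand setting beyond the default of the counter. Ltv1 and Nop16 had the only negative values, −0.35 ± 0.35 and −0.03 ± 0.45.

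**Figure D4:**
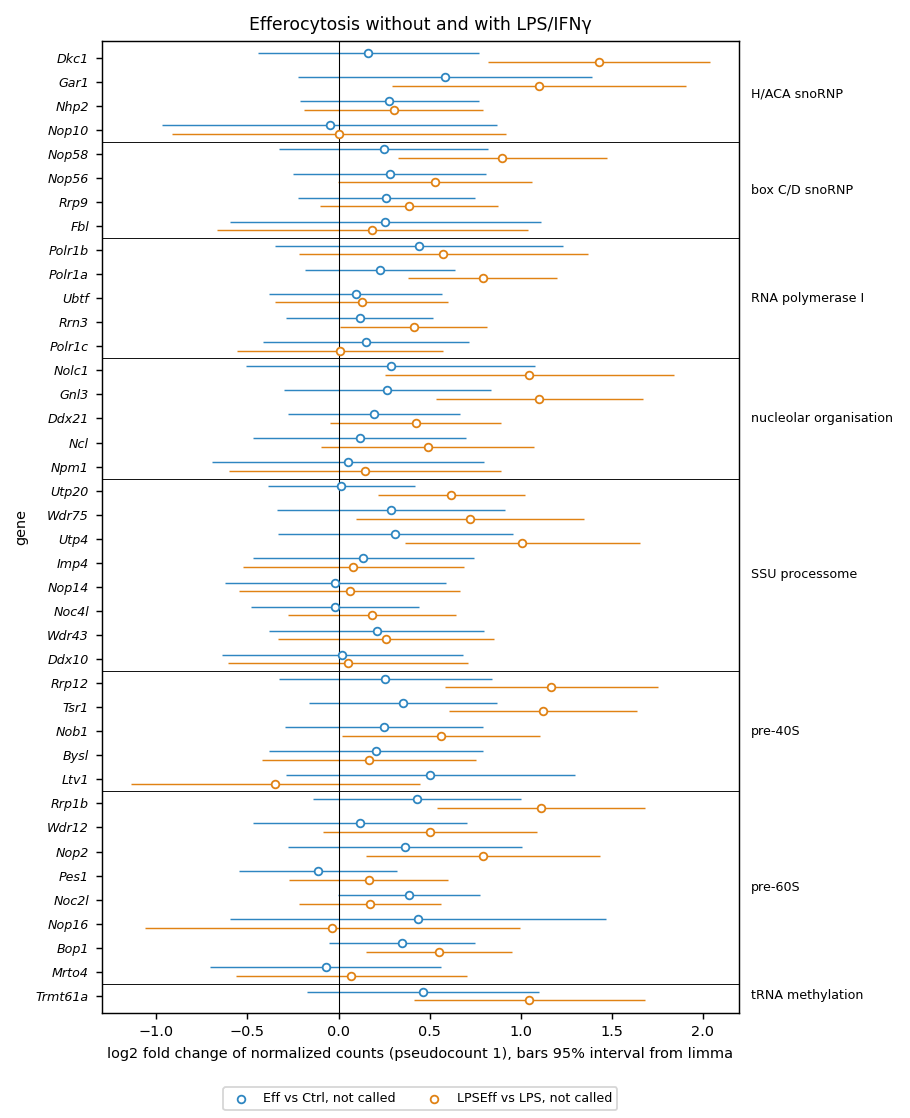
Log2 fold changes of normalized counts (x axis, pseudocount 1) with 95% intervals from limma for Eff vs Ctrl (blue) and LPSEff vs LPS (orange), all open because none was called. Of the blue points 35 and of the orange points 38 lie right of 0, with Dkc1 at 1.43 the farthest.

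In these comparisons the fibroblast markers moved as well. Of 13 fibroblast markers tested, 6 were called higher with efferocytosis in unstimulated cells and 6 in stimulated cells, with median log2 fold changes of 3.54 and 4.27, and 4 and 2 were called higher in LPS vs Ctrl and LPSEff vs Eff. Their part in the values of the 40 genes was not tested. The replicates also differed. Replicate 2 was above replicate 1 for 36 of 40 genes in LPSEff, with a median difference of 0.39 on the log2 scale, and for 30 of 40 in LPS with 0.28, whereas the median over all genes tested was 0.08 and 0.13. In Ctrl and Eff replicate 2 was above replicate 1 for 24 and 14 genes.

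Whether the stimulus acted differently in efferocytic and naïve cells was tested as an interaction. By limma, 0 of 40 genes were called (0.0% of all genes tested), as by edgeR and DESeq2, and 5 genes had an unadjusted p under 0.05, against 1.91% of all genes. These were Dkc1, Rrp12, Utp20, Tsr1 and Gnl3, and all of them fell less in efferocytic cells. The fall was smaller in efferocytic cells for 33 of 40 genes, and the median of the interaction was 0.24, against 0.01 over all genes tested. Without LPSEff replicate 1 this median was 0.39, without LPSEff replicate 2 it was 0.16 and without LPS replicate 1 it was 0.15. The interaction of Dkc1 was 1.27 with a 95% interval from 0.41 to 2.13, that of Rrp12 was 0.91 with 0.09 to 1.74, and that of Utp20 was 0.60 with 0.04 to 1.17 (limma adjusted p of 1 after rounding for each, n = 2 per group).

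Other genes of the pathway were taken from lists by role, and all of the 123 genes were tested. In LPS vs Ctrl, 54 of 123 were called lower and 4 higher with a median log2 fold change of −0.70, and in LPSEff vs Eff, 34 were called lower and 4 higher with a median of −0.47. With equal totals 85 and 78 were called lower and 3 and 2 higher. That scaling called 4315 and 4362 of all 16309 genes tested lower. The SSU processome and pre-40S list had 21 of 40 genes lower and 1 higher in naïve cells, and 13 lower and 1 higher in efferocytic cells. Its largest called changes in naïve cells were those of the rRNA acetyltransferase Nat10 (−2.27), Pwp2 (−1.81) and Wdr46 (−1.52), and Rcl1 was higher (1.14). The pre-60S list had 23 of 48 genes lower and 3 higher in naïve cells, and 14 lower and 3 higher in efferocytic cells. Ppan (−2.22), Rrp15 (−2.03) and Nle1 (−1.83) changed most in naïve cells. The 3 genes that were higher in naïve cells, Sbds (1.78), Ddx24 (1.01) and Eif6 (0.77), were also the 3 in efferocytic cells, at 1.29, 1.03 and 0.98. Of these, Sbds and Eif6 act late, when Eif6 keeps the subunits apart and Sbds takes part in its release. Of all genes tested, 12.4% were called higher in naïve cells and 10.7% in efferocytic cells. The counts of 1 of 40 and 3 of 48 called higher lie below these shares and are no result about these lists.

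The RNA exosome list, which trims rRNA ends, had 7 of 15 genes lower in naïve cells and 5 in efferocytic cells, led by Exosc2 (−1.99) and Exosc6 (−1.61) in naïve cells. Of 10 other snoRNP genes 2 were lower in naïve cells (Shq1 at −1.16 and Nopchap1 at −0.73) and 0 in efferocytic cells, where none was called by edgeR or DESeq2 either and 1 had an unadjusted p under 0.05. By edgeR and by DESeq2, 1 of them was lower in naïve cells. Of 10 other RNA polymerase I genes 1 was lower in naïve cells, Polr1g (−1.73), and 2 in efferocytic cells, Polr1g (−1.41) and Polr1f (−0.98). These counts of 0 to 2 of 10 are near the shares of all genes called lower (11.6% and 8.95%) and are no result about these lists. In Eff vs Ctrl, 0 of the 123 genes were called by limma, edgeR and DESeq2 and 1 had an unadjusted p under 0.05. In LPSEff vs LPS, 0 were called by limma and edgeR, 2 were called higher by DESeq2, which called 368 of all 16309 genes, and 25 had an unadjusted p under 0.05 by limma, against 10.3% of all genes.

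Ribosomal proteins are what these factors assemble onto rRNA. Of 79 cytosolic ribosomal protein genes, 0 were called in LPS vs Ctrl and 0 in LPSEff vs Eff by limma, edgeR and DESeq2, with 0 and 3 at an unadjusted p under 0.05 by limma and medians of −0.04 and −0.07. With equal totals, which moved the median of all genes as given above, 10 and 17 of them were called lower. The same scaling called 4315 and 4362 of all 16309 genes tested lower. Quantile normalization called 4 and 5 of the 79 lower, beside 2302 and 2100 of all genes tested. With the replicate number as a block, 1 was lower and 4 were higher in LPS vs Ctrl. In LPSEff vs Eff, the block gave 3 lower and 1 higher. It called 6717 and 6033 of all genes tested. For 74 of the 79, more than 10% of the 50-base windows of the transcript occur elsewhere in the genome, with a median of 45.4%, so that their levels are uncertain. Among the 40 genes, this holds for 6 (Fbl, Npm1, Nop56, Mrto4, Wdr12 and Pes1), with a median of 0.860% over all 40.

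**Figure D5:**
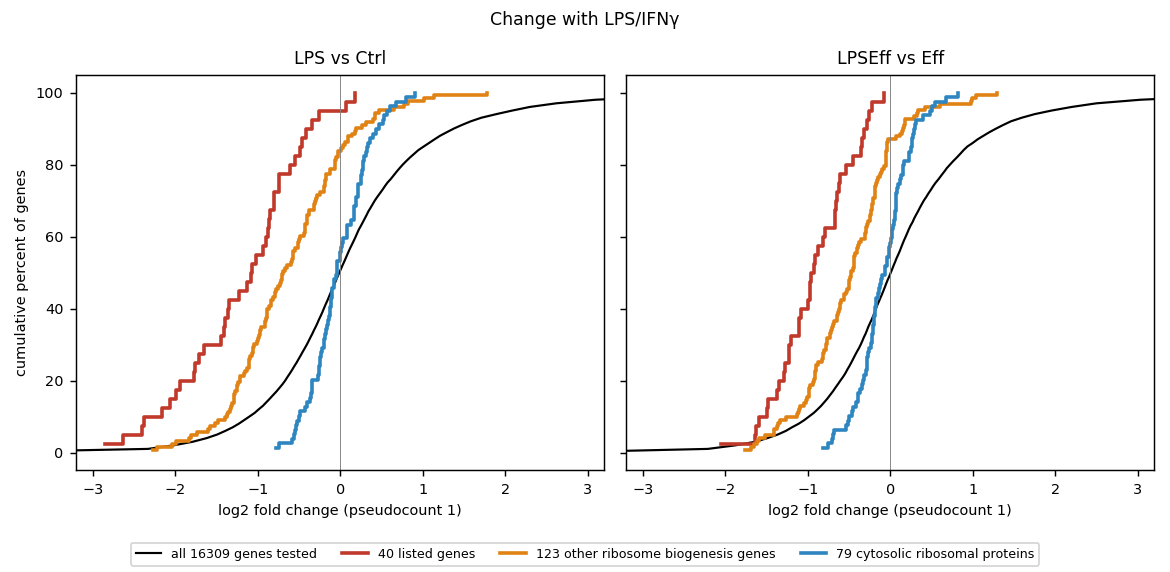
Cumulative percent of genes (y axis) by log2 fold change (x axis, pseudocount 1) in LPS vs Ctrl (left) and LPSEff vs Eff (right) for all 16309 genes tested (black), the 40 genes (red), 123 other ribosome biogenesis genes (orange) and 79 ribosomal protein genes (blue). The red line lies farthest left with medians of −1.08 and −0.94, the orange line follows with −0.70 and −0.47, and the blue line crosses the middle near 0.

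Myc itself had 542.7 and 411.8 normalized counts in Ctrl, 86.7 and 93.4 in LPS, then 827.2 and 405.8 in Eff and 101.3 and 147.2 in LPSEff, with log2 fold changes of −2.38 in LPS vs Ctrl and −2.24 in LPSEff vs Eff (limma adjusted p = 0.00221 and 0.0035, n = 2 per group). Mxd1, which competes with MYC for MAX at E-boxes, rose by 3.22 and 3.46. Of the 10 genes of this family tested, 2 were lower and 3 higher in each comparison. The 27 listed genes with an E-box in the window had a median log2 fold change of −1.23 in LPS vs Ctrl, from −2.86 to 0.18, and the 13 without had −0.87, from −2.38 to 0.07. These ranges overlap almost fully, and no relation between the motif and the change was tested.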

How the data were processed

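Total RNA of 8 samples was measured after rRNA depletion. Adapters were trimmed by the authors with cutadapt, residual rRNA reads were removed with Bowtie2, the rest was aligned to mm39 by STAR and genes were counted by HTSeq in default mode. The deposited unit is a signal, here called the normalized count: reads of a gene over the size factor of the sample. DESeq2 is named in the submitters' processing notes. Tool versions and the annotation release are not given in the sources used here. In every sample 100% of values were whole multiples of the worth of 1 read (within 0.01 read), which gave the recovered reads (median 8431112.5 per sample). Neither the floor of 3 reads nor the binomial intervals cover more than counting error.

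Names and positions of genes were taken from GENCODE M39 (GRCm39), in which 54749 of 55359 identifiers were found. For the main test, log2(normalized count + 1) of genes with a mean of at least 10 was fitted by limma (version 3.58.1 under R 4.3.3) with its intensity trend, with 4 group means in 1 fit and 4 residual degrees of freedom, so that fold changes of low genes are understated. Calls were made at a Benjamini-Hochberg adjusted p under 0.05. Alternatives were pseudocounts of 0.5 and 5, no filter (mean above 0), a filter at a mean of 50, fits of the groups compared alone, the replicate number as a block, quantile normalization, equal totals, edgeR (version 4.0.16, TMM, quasi-likelihood) and DESeq2 (version 1.42.0) on recovered reads, and each sample left out in turn. The tests were tested on simulated data.

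The 40 genes, the other lists (RNA polymerase I, SSU processome and pre-40S, pre-60S, snoRNP, exosome, ribosomal proteins, MYC family and markers of macrophages, fibroblasts, dendritic cells, lymphocytes and neutrophils) and the tests were chosen with earlier results of these data known. Per-sample values are given for the 5 largest and 2 smallest changes in LPS vs Ctrl, the leading gene of each role, genes against the direction of the list and the 3 smallest p-values of each comparison with no call. Other lists are described by up to 3 called genes with the largest change, and further genes, such as the other called genes of a short list, were named after their values had been seen. The E-box and its windows were chosen after the values had been seen, and the sequences are those of GRCm39. Uniqueness is the share of 50-base windows of the canonical transcript that occur elsewhere in the genome.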

Additional observations from a re-analysis of the deposited data

How the results depend on the processing

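Over 18 alternative settings, 494 of 519 values of the genes described in full kept their direction and their side of the threshold, 7 lost the call, 11 gained it and 7 turned direction, and the cause was not tested except where named. The count of called genes in LPS vs Ctrl was 16 to 27 and in LPSEff vs Eff 7 to 24 when a sample was left out, which also leaves fewer degrees of freedom and assumes that the lone sample varies like the other groups. It was 0 in Eff vs Ctrl, LPSEff vs LPS and the interaction in each of these fits. Equal totals gave 35 called genes in LPSEff vs Eff and medians of −1.47 (LPS vs Ctrl) and −1.39 (LPSEff vs Eff), because that scaling lowers all stimulated samples. In LPSEff vs LPS, equal totals called 2 genes, quantile normalization 1 and DESeq2 4, beside 137, 165 and 368 of all 16309 genes tested. In LPS vs Ctrl, Ltv1 turned to −0.22 and Polr1c to −0.33 with equal totals, and their values were −0.11 to 0.47 and −0.27 to 0.40 with a sample left out, while Polr1c in LPSEff vs Eff was −0.15 to 0.0031. Over all settings no gene of the list was called higher with stimulation or lower with efferocytosis.

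With the replicate number as a block (3 residual degrees of freedom), 31 genes were called in LPS vs Ctrl, 30 in LPSEff vs Eff, 13 in LPSEff vs LPS (all higher, beside 14 of the 123 other ribosome biogenesis genes) and 0 in Eff vs Ctrl and the interaction. The block called 6717, 6033 and 1137 of all 16309 genes tested in LPS vs Ctrl, LPSEff vs Eff and LPSEff vs LPS. The main fit called 3910, 3213 and 126 of them. Across genes, the replicate difference of a group correlated with that of another group at r = 0.404 to 0.595 (6 pairs of groups). Samples with the same number therefore deviated alike in part. No label ties the 2 numbers to a shared preparation, and the cause of this likeness was not tested. Among the called falls in LPS vs Ctrl, those of Gar1 and Imp4 lay nearest the threshold (limma adjusted p = 0.0499 and 0.0465), and those of Gar1, Rrn3 and Imp4 held in 5, 7 and 9 of the 18 alternatives. The lowest counts in a sample were 14 reads for Nop16, 18 for Trmt61a, 24 for Dkc1 and Gar1 and 25 for Fbl, which limits the precision of these values.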
